A study of Homo sapiens with 6 samples.

Results

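The nuclear genes of the mitochondrial protein import machinery named TIMM and TOMM were examined in RNA libraries from an immunoprecipitation (IP) of phosphorylated UPF1 and in control libraries. Members were the rows of the count table whose symbol starts with TIMM or TOMM followed by a digit and does not end in P plus a digit, which gave 24 of 26364 genes. All libraries came from HEK293T, a transformed human embryonic kidney cell line, and the cells had been given okadaic acid (200 nM, 3 h). This toxin blocks protein phosphatases and so preserves the phosphate on UPF1, the helicase of nonsense-mediated mRNA decay (NMD). There were 3 libraries titled pre-IP (replicates 1, 4 and 7) and 3 titled pUPF1 (replicates 3, 6 and 9), the latter made with an antibody against phosphorylated UPF1 from pooled dishes. Rabbit IgG is given as antibody for the pre-IP libraries, so the control may be input RNA or a mock IP. No untreated cells were compared, and since separate cultures are not stated for the replicates, p-values speak for the spread among these 6 libraries alone, part or all of which may be technical.

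Most mitochondrial proteins are made in the cytosol and imported. The TOM complex of the outer membrane receives them through receptors (TOMM20, TOMM22, TOMM70) and passes them through the TOMM40 channel, which the small subunits TOMM5, TOMM6 and TOMM7 surround. Small TIM chaperones carry hydrophobic precursors across the intermembrane space, TIM22 inserts carrier proteins into the inner membrane, and TIM23 with its TIMM44-bound motor moves proteins with a presequence into the matrix. As background on the assay, p-UPF1 marks RNAs engaged by the decay pathway, and the comparison asks which RNAs are recovered with it relative to the control.

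Libraries held between 600244 and 1179369 counts in pre-IP, and between 905926 and 2057647 in pUPF1. Genes of small structured RNAs took 63.2% to 75.2% of counts in pre-IP and 24.1% to 43.1% in pUPF1, which moves every share of the total. All 8 listed markers that HEK293T cells can express (among them VIM, KRT8 and NEFM) had counts, summing to 161 to 255 CPM (counts scaled to a common library size) on library totals in pre-IP and 940 to 1090 CPM in pUPF1. Of 17 markers of blood, liver, fibroblasts, muscle and epidermis, 11 were at 0 in every library, among them HBA1, PTPRC, APOA1, COL1A2, MYH7 and KRT5. The 17 summed to 1.67 to 6.35 and 6.52 to 9.93 CPM, and their part in the results was not tested. As in any bulk sample, fewer cells with a transcript and less of it per cell cannot be told apart.

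The short subunits of the TOM complex, its central receptor TOMM22 and the small TIM chaperones TIMM10 and TIMM8B were lower with p-UPF1. The receptors TOMM20 and TOMM70 and the inner-membrane translocases did not pass the test in either direction. Of the 24 members, 20 had enough counts to be tested, and 6 of these 20 fell: TOMM7, TIMM10, TIMM8B, TOMM6, TOMM22 and TOMM5 (edgeR quasi-likelihood F-test on TMM-scaled counts, Benjamini-Hochberg adjusted over 8070 genes). Over all tested genes 10.9% were lower and 8.81% higher, and over tested protein-coding genes 8.05% and 9.11%. None of the 20 members was higher (0 calls by edgeR, DESeq2 or limma-voom, and 0 at an unadjusted edgeR p under 0.05). DESeq2 and limma-voom also called 6 members lower each, where DESeq2 called 11.9% of all genes lower and 10.2% higher, and limma-voom 12.8% and 8.07%. The median log2 fold change was -0.23 over the tested members and 0.10 over all tested genes. TMM scaling sets most genes near no change. With library totals alone that median moved to 1.63 for all genes and 1.34 for the members, 9 members were called higher and TOMM7 alone lower, where 60.4% of all genes were higher and 1.93% lower. Changes are therefore given relative to the typical gene. The 4 members not tested were TIMM8A, TIMM21, TIMM23B and TOMM20L.

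**Figure D1:**
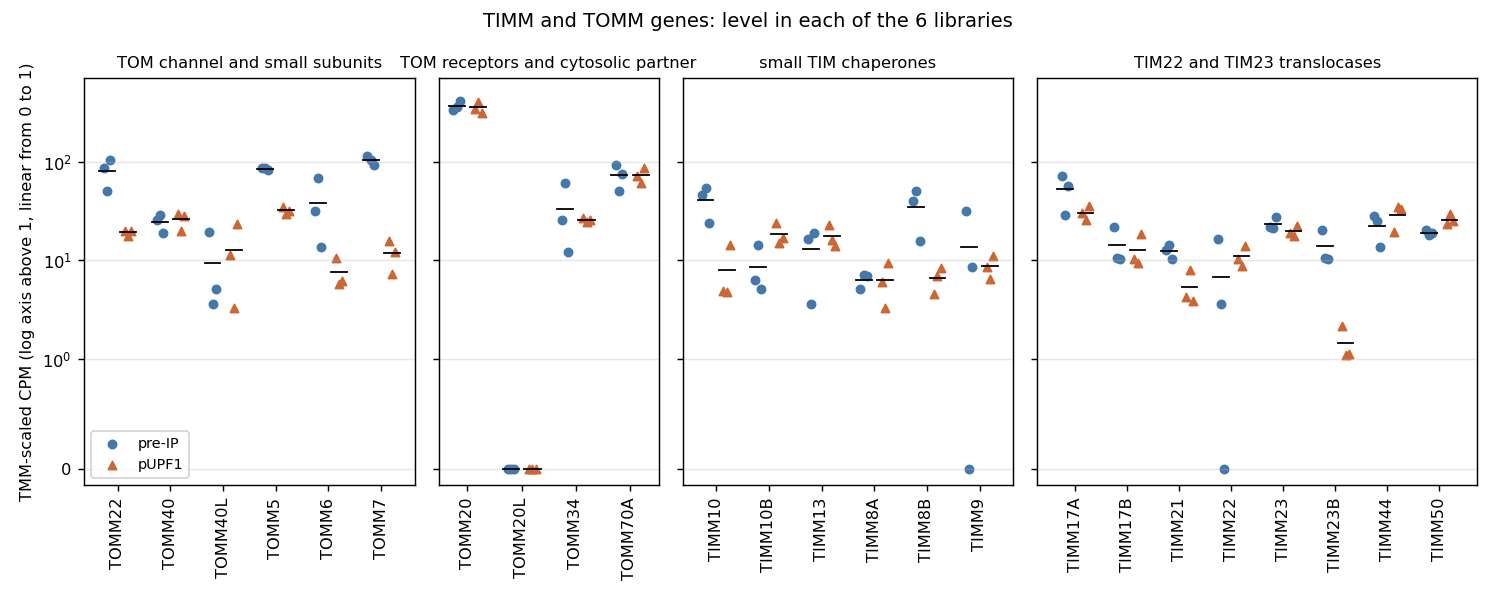
Level of each of the 24 members in each library, in TMM-scaled CPM, on a log axis above 1 and a linear axis from 0 to 1. Points are libraries (3 per group), short lines are group means, and panels are roles. The pUPF1 libraries of TOMM7 sit between 7.28 and 15.9, all below the pre-IP libraries between 93.3 and 115. Of all tested genes 17.7% had every pUPF1 library below every pre-IP library.

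Taken as a sum, the 24 members held 919, 300 and 607 counts in the pre-IP libraries (replicates 1, 4 and 7) and 2481, 2102 and 1388 in the pUPF1 libraries (replicates 3, 6 and 9). Their share of all counts was 0.0641% ± 0.0140 (SD, n = 3) in pre-IP and 0.129% ± 0.0209 in pUPF1. Exact (Clopper-Pearson) 95% intervals ran from 0.0445% to 0.0831% over the pre-IP libraries and from 0.109% to 0.162% over the pUPF1 libraries, and they cover counting error only, since PCR reads without molecular identifiers are not independent molecules. With the small structured RNAs left out of the total, the shares were 0.199% ± 0.0136 and 0.197% ± 0.00672, and the libraries of the groups overlapped. Parts of the family's make-up, given next, did not overlap between the groups.

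The core of TOM (TOMM40, its paralogue TOMM40L, the small subunits, and TOMM22, which was counted here and not with the receptors), with all 6 genes tested and 4 lower, took 30.3% to 31.7% of the family's counts in pre-IP and 11.0% to 16.2% in pUPF1. Of all tested genes 10.9% were lower, and of protein-coding genes with transcripts under 1000 nt, as 3 of these 4 have, 49.1%. The proportion of the family's counts does not depend on how libraries are scaled. These proportions share a common total, however, so a lower proportion of any group raises the rest. With TMM scaling TOMM20, TOMM70A and TOMM34 were at log2 fold changes of -0.06, -0.03 and -0.22. The group of TOMM20, TOMM70A, the untested TOMM20L and the cytosolic cochaperone TOMM34, with 3 genes tested and none past the threshold in either direction by edgeR, DESeq2 or limma-voom (0 calls each, and 0 at an unadjusted edgeR p under 0.05), took 38.5% to 47.9% and 54.8% to 64.5%. Neither of these proportions overlapped between the groups. The non-overlap of the second depends on leaving TOMM22 out of it. TOMM22 held 9.88% in pre-IP replicate 7 and 2.59% in pUPF1 replicate 9. Added to the 47.9% and 54.8% of those libraries, these would make the groups overlap. How often other gene groups show such non-overlap was not tested. The small TIM chaperones (7.58% to 12.4% and 6.85% to 9.58%) and the TIM22 and TIM23 genes (12.3% to 18.2% and 15.7% to 19.8%) overlapped between groups.

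**Figure D2:**
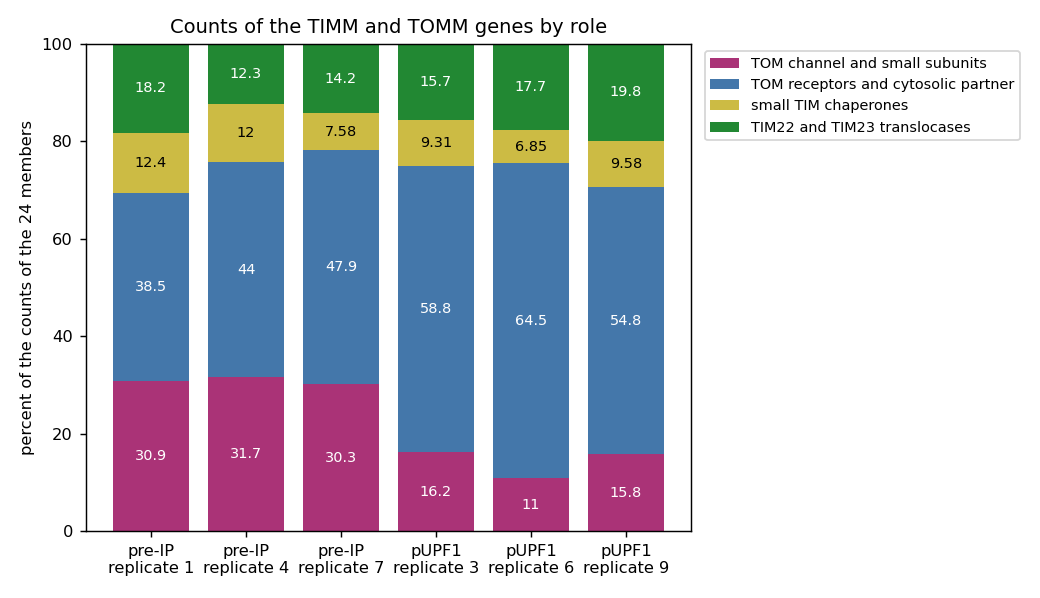
Counts of the 24 members in each library, divided by role as a percent of the family's counts (each bar adds to 100). The TOM channel and small subunits, TOMM22 among them, hold 31.0% ± 0.679 (mean, SD, n = 3) in pre-IP and 14.3% ± 2.90 in pUPF1.

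TOMM7, a small subunit that modulates assembly of the TOM complex and stabilises PINK1 on damaged mitochondria, had the largest decrease of the tested members. Its counts were 90, 29 and 54 in pre-IP and 52, 20 and 22 in pUPF1, or 115, 104 and 93.3 against 15.9, 7.28 and 12.3 TMM-scaled CPM. Every pUPF1 library was below every pre-IP library, with TMM scaling and with library totals alone. With TMM scaling 17.7% of all tested genes showed this pattern. On library totals the share of all genes with it was not computed. The log2 fold change was -3.13 (SE 0.38, edgeR adjusted p = 3.0e-05). It was called lower in 17 of 17 alternative analyses, with the adjusted p between 6.13e-12 (DESeq2) and 0.00753 (library totals alone).

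TOMM5 and TOMM6, the other small subunits next to the channel, were lower as well. TOMM5 had 85.7, 85.9 and 82.9 CPM in pre-IP and 35.1, 29.9 and 31.9 in pUPF1, a close grouping in both (log2 fold change -1.39, SE 0.32, edgeR adjusted p = 0.00548). With library totals alone TOMM5 was at 0.16 (edgeR adjusted p = 0.733), so its decrease holds only relative to the typical gene. TOMM6 had 32.0, 68.0 and 13.8 CPM in pre-IP and 10.7, 5.82 and 6.15 in pUPF1 (-2.21, SE 0.62, edgeR adjusted p = 0.0194). The pre-IP values of TOMM6 varied over a wide range, and its call was lost without pre-IP replicate 4 (-1.56, edgeR adjusted p = 0.113) or pUPF1 replicate 6 (0.0796) or 9 (0.0819).

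TOMM22, the central receptor that binds TOMM20 and the channel, had 85.7, 50.1 and 104 CPM in pre-IP and 19.9, 17.8 and 20.1 in pUPF1. Its pUPF1 libraries lay close together and under all pre-IP libraries, the latter a pattern of 17.7% of all tested genes (log2 fold change -2.08, SE 0.36, edgeR adjusted p = 0.000883). It was called lower in 16 of 17 alternatives, all but library totals alone (-0.56, edgeR adjusted p = 0.289). TOMM40, the channel itself, had 25.6, 28.6 and 19 CPM in pre-IP and 29.9, 20.0 and 28.5 in pUPF1. The groups overlapped and the log2 fold change of TOMM40 was 0.12 (SE 0.45, edgeR adjusted p = 0.878). The paralogue TOMM40L was at 0.25 (SE 0.81) on 1 to 15 counts per pre-IP library.

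TOMM20, the receptor for presequences, was the most counted member, with 262, 101 and 240 counts in pre-IP and 1134, 1119 and 559 in pUPF1. On the TMM scale these were 335, 362 and 415 against 346, 407 and 313 CPM, and the groups overlapped (log2 fold change -0.06, SE 0.30, edgeR adjusted p = 0.911). With library totals alone TOMM20 was at 1.49 (edgeR adjusted p = 0.00114). A small nucleolar RNA gene, SNORA14B, lies in an intron of TOMM20 and has its own row, with 1803 to 2637 counts in pre-IP and 1014 to 7032 in pUPF1. In the annotation used here the exons of the host and of the small RNA do not overlap.

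TOMM70A, the receptor for carrier precursors and their chaperones (now TOMM70), had 92.1, 50.1 and 76.0 CPM in pre-IP and 72.1, 61.5 and 87.2 in pUPF1 (log2 fold change -0.03, SE 0.32, edgeR adjusted p = 0.965). Its levels overlapped fully between the groups. TOMM34 was at -0.22 (SE 0.51), with pre-IP values of 12.1 to 60.9 CPM around pUPF1 values of 24.4 to 26.9. TOMM20L, a paralogue of TOMM20, had 0 counts in every library, which allows a share of up to 0.0005% in the smallest library and 0.000146% in the deepest.

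Among the small TIM chaperones 2 of 5 tested members fell and 0 rose (0 rose by DESeq2 or limma-voom, and 0 at an unadjusted edgeR p under 0.05), against 10.9% lower over all genes and 49.1% lower over protein-coding genes with transcripts under 1000 nt, the length class of both. TIMM10, which with TIMM9 forms the carrier chaperone ring, had 46.1, 53.7 and 24.2 CPM in pre-IP and 4.89, 4.73 and 14.5 in pUPF1 (log2 fold change -2.38, SE 0.58, edgeR adjusted p = 0.00845). TIMM8B had 39.7, 50.1 and 15.6 CPM in pre-IP and 4.58, 6.92 and 8.39 in pUPF1 (-2.37, SE 0.60, edgeR adjusted p = 0.0106). The groups did not overlap for either gene, a pattern in this direction that 17.7% of all tested genes showed. Without pUPF1 replicate 3 both missed the threshold (-2.10 with an edgeR adjusted p = 0.0551 for TIMM10, and -2.15 with 0.0615 for TIMM8B). Without pUPF1 replicate 9, the highest of its group, TIMM10 was at -3.04 (edgeR adjusted p = 0.00867).

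The other small TIM chaperones did not pass the test. TIMM9, the partner of TIMM10, had 25, 0 and 5 counts in pre-IP and 28, 18 and 20 in pUPF1, so that pre-IP replicate 1 carries most of its control signal. Its log2 fold change was -0.83 (SE 0.78) and 0.68 without that library. TIMM13 was at 0.30 (SE 0.60). TIMM10B, a subunit of the TIM22 complex, had only 5, 4 and 3 counts in pre-IP and 78, 41 and 30 in pUPF1. On the TMM scale TIMM10B had 6.40, 14.3 and 5.18 CPM in pre-IP and 23.8, 14.9 and 16.8 in pUPF1. This was the highest fold of the tested members (1.25, SE 0.67, edgeR adjusted p = 0.199). Its groups did not overlap, a pattern in this direction that 21.9% of all tested genes showed (17.7% in the opposite direction). TIMM8A, whose loss causes deafness-dystonia syndrome and which chaperones with TIMM13, was too thinly counted to test (4, 2 and 4 counts against 20, 9 and 17).

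No gene of the TIM22 and TIM23 translocases among the 6 tested passed the test (0 calls in either direction by edgeR, DESeq2 or limma-voom; at an unadjusted edgeR p under 0.05, 1 lower and 0 higher). With 10.9% of all tested genes lower and 8.81% higher by edgeR after adjustment, a count of 0 in 6 is near the background. The share of all genes at the unadjusted level was not computed. The gene at the unadjusted level was TIMM17A, a core subunit of TIM23, with 71.6, 28.6 and 57.0 CPM in pre-IP and 30.2, 25.8 and 35.8 in pUPF1 (log2 fold change -0.84, SE 0.38, edgeR adjusted p = 0.131). It was called lower in 1 of 17 alternatives, without pre-IP replicate 4 (-1.04, edgeR adjusted p = 0.0492). The alternative core subunit TIMM17B was at -0.24 (SE 0.63), TIMM44, which tethers the motor, at 0.38 (SE 0.48), and TIMM50, the presequence receptor, at 0.42 (SE 0.46). TIMM50 had 17.9 to 20.5 CPM in pre-IP and 23.2 to 29.5 in pUPF1 and did not overlap, as 21.9% of all tested genes did not in this direction. TIMM22, the carrier insertase, was at 0.51 (SE 0.85), but pre-IP replicate 1 held 13 of its 14 pre-IP counts, and without that library the value was 3.10 (edgeR adjusted p = 0.111). TIMM21, which links TIM23 to TOM, was not tested (10, 4 and 6 counts against 14, 22 and 7).

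**Figure D3:**
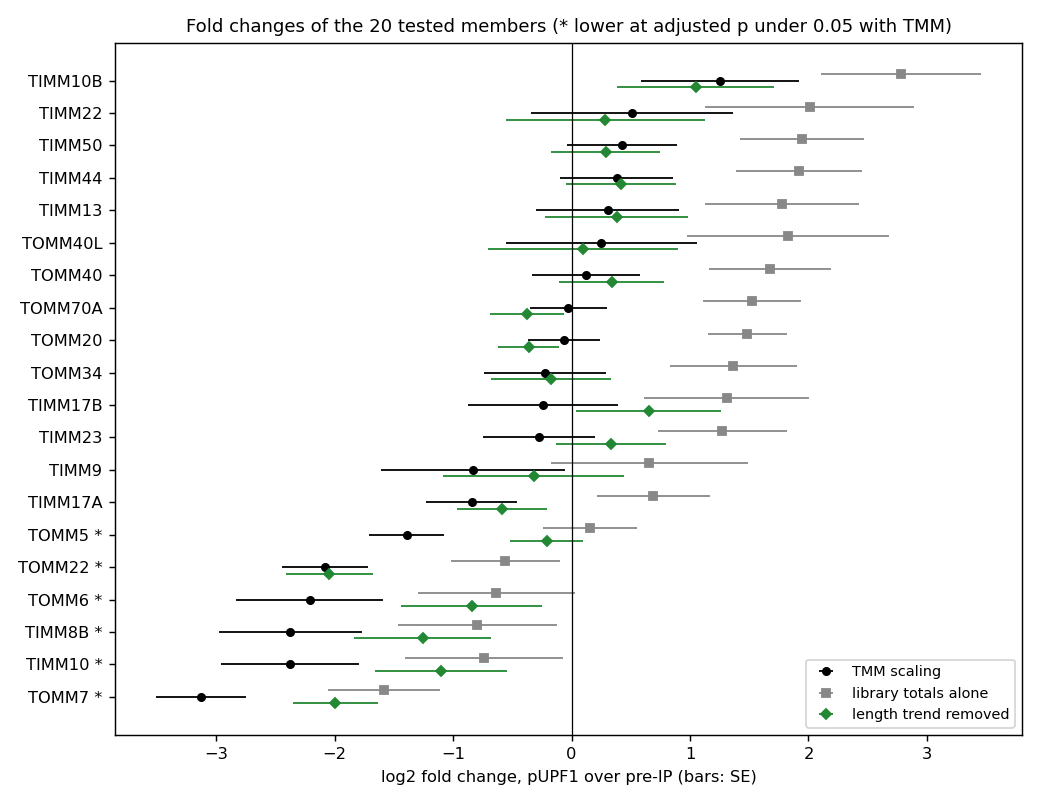
Log2 fold change of pUPF1 over pre-IP for the 20 tested members, with standard errors, under TMM scaling, library totals alone and TMM with the trend over transcript length removed. The 6 starred genes were lower at an adjusted p under 0.05 with TMM. On library totals alone TOMM7 was the only member called lower, and with the length trend removed TOMM7 and TOMM22 were.

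TIMM23, the channel subunit of TIM23, and its near copy TIMM23B differed in these libraries. TIMM23 had 17, 6 and 16 counts in pre-IP and 62, 49 and 40 in pUPF1 (log2 fold change -0.27, SE 0.47, edgeR adjusted p = 0.732). TIMM23B had 16, 3 and 6 counts in pre-IP and 7, 3 and 2 in pUPF1, which left it below the filter. Its share of the counts of both genes was 48.5%, 33.3% and 27.3% in pre-IP and 10.1%, 5.77% and 4.76% in pUPF1, with no overlap between groups, although the exact 95% intervals of single libraries overlap (7.49% to 70.1% for pre-IP replicate 4, 4.18% to 19.8% for pUPF1 replicate 3). With no filter on low counts TIMM23B was at -3.03 (SE 1.02, edgeR adjusted p = 0.0293), and it was also called with the small structured RNAs left out (-3.21, edgeR adjusted p = 0.0134). TIMM23B was singled out after its values were seen.

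Reads of the pair can be told apart only where the sequences differ. Over the first 513 bases of the coding sequences (GENCODE release 29 transcripts on GRCh38, coding strand), 503 were identical and 10 differed. Of the 1193 windows of 30 nt in the TIMM23 transcript, 339 (28.4%) also occur in TIMM23B. For TIMM23B, 41.2% of 1113 windows occur at another locus. The stretches below each hold a single difference, in capitals, at positions counted from 1 at the A of the start codon of TIMM23, and they are shown because a short read that misses such a base fits both genes. The substitutions are T180C, A246G and T405G, with the TIMM23 base first.
TIMM23, 180: gatacagatgagttTattttacctaccgga
TIMM23B, 180: gatacagatgagttCattttacctaccgga
TIMM23, 246: tttacgattggaggAtgttgcatgacaggg
TIMM23B, 246: tttacgattggaggGtgttgcatgacaggg
TIMM23, 405: ctaggttctctggcTttgctctatagtgca
TIMM23B, 405: ctaggttctctggcGttgctctatagtgca
How reads with several matches were counted is not given, so counts of TIMM23 and TIMM23B are uncertain. Small nucleolar RNA genes lie inside both, SNORA74C-1 in TIMM23 and SNORA74C-2 in TIMM23B, with no exon overlap. Exons of TIMM23B also overlap LINC00843 on the same strand. None of these has a row of its own under that name.

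Other members share sequence or position with another gene. At loci elsewhere, copies of 30-nt windows were found for 37.5% of the TOMM40 transcript and 10.5% of that of TOMM20, the latter mainly at TOMM20 pseudogenes and unnamed loci. The share was 12.8% for TIMM8B and 8.69% for TIMM8A. For TOMM7, TOMM6, TOMM5, TIMM10 and TOMM22 it was 5.34%, 1.97%, 2.63%, 2.92% and 3.78%. Copies at the locus itself are not in these shares. There, all TOMM6 windows (100%) also belong to the annotated same-strand gene AL365205.1, and 73.4% of the TOMM5 windows to AL138752.2 or AL513165.2, none of which has a row in the table under that name. Exons of TIMM8B, TIMM9, TIMM10B, TIMM17B, TIMM22, TIMM23B, TOMM6 and TOMM70A overlap genes on the opposite strand that also had counts, and those of TIMM13 overlap LMNB2 on the same strand. For TIMM8B, 39.3% of windows also belong to NKAPD1 on the opposite strand, which has no row under that name. ARFIP2, opposite TIMM10B, had 18, 5 and 11 counts in pre-IP and 103, 82 and 69 in pUPF1, and USP49, opposite TOMM6, had 0 in each pre-IP library and 55, 38 and 31. The strand setting of the counting is not given, so reads of such partners cannot be told apart from those of the member.

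Set per kilobase of annotated transcript, TOMM7 had the highest mean level in pre-IP (134 ± 14.0 CPM per kb, SD, n = 3), followed by TOMM5 (113 ± 2.23) and TOMM20 (109 ± 12.0). The pre-IP libraries of TOMM20 overlapped those of both TOMM7 and TOMM5, so the order of TOMM20 among these is not settled. TIMM10 (60.8 ± 22.5), TOMM6 (59.6 ± 43.3), TIMM8B (43.6 ± 22.0) and TOMM22 (39.1 ± 13.4) came next by mean and overlapped among themselves. In pUPF1 the level per kb was highest for TOMM20 (105 ± 14.2) and then for TOMM5 (43.0 ± 3.54). TOMM7 was in place 6 there at 15.2 ± 5.55 CPM per kb, within the spread of TIMM17A (18.5 ± 3.01), TOMM70A (16.7 ± 2.93), TIMM23 (16.1 ± 1.94) and TOMM40 (15.2 ± 3.11).

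The tested members that fell are mostly those with short transcripts. TOMM6 (637 nt), TIMM10 (680 nt), TOMM5 (751 nt), TOMM7 (778 nt) and TIMM8B (805 nt) are the 5 shortest of the tested members by the annotated transcript, and all 5 fell. The next, TIMM17B (950 nt), did not pass the test. TOMM22 (2040 nt) was the exception among the decreases. Below 1000 nt 5 of 6 members were lower, where 49.1% of 289 tested protein-coding genes of that length were. From 1000 to 2000 nt it was 0 of 5 members (15.8% of 1163 genes), from 2000 to 3000 nt 1 of 6 (8.02% of 1608 genes), and from 3000 nt 0 of 3 (3.53% of 4617 genes). Over all 7677 tested protein-coding genes 8.05% were lower and 9.11% higher. The share called higher went from 0.346% below 1000 nt through 2.67% and 4.98% to 12.7% from 3000 nt, and no member was called higher in any of these length classes. The median log2 fold change of genes below 1000 nt was -1.36, and that of the 6 members there -2.29.

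**Figure D4:**
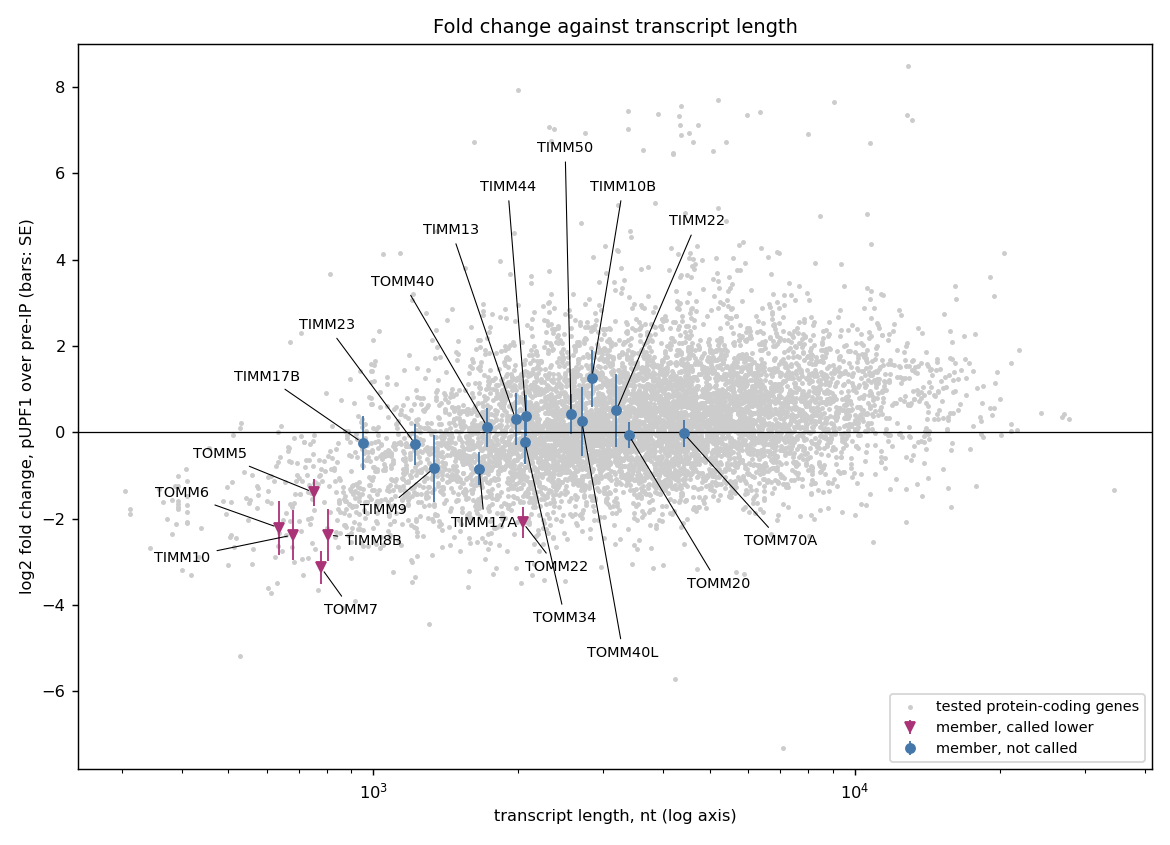
Log2 fold change of pUPF1 over pre-IP against the length of the annotated transcript (log axis) for all tested protein-coding genes (grey) and the 20 tested members (bars, SE). The members below 1000 nt lie between -3.13 and -0.24, and TOMM22 lies at -2.08 at 2040 nt.

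Over the 20 tested members the log2 fold change correlated with log2 transcript length at Pearson's r = 0.76 (Spearman's rho = 0.79), and over 7677 protein-coding genes at r = 0.35 (rho = 0.35). These are descriptions across genes that share the same 6 libraries. For coding length r was 0.61 over the members and 0.45 over all these genes, so that transcript length had the higher r among the members and coding length among all genes. For 3' UTR length r was 0.51 and 0.10, and for GC content 0.38 and 0.20. The small TIM chaperones have coding sequences of like length in transcripts of unlike length. TIMM10 and TIMM8B code for 270 and 294 nt within short transcripts. TIMM9 (267 nt coding, 1336 nt in all), TIMM13 (285 and 1973 nt) and TIMM10B (309 and 2840 nt) did not pass the test. These had fewer pre-IP counts in sum (30, 25 and 12) than TIMM10 and TIMM8B (65 and 54). Differences between these members were not tested, nor was length as a cause.

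With the trend of each library over transcript length removed, 2 of the 20 members were lower in place of 6, and 0 higher, against 8.15% lower and 4.38% higher over 8013 genes. TOMM22 kept its value (log2 fold change -2.04, SE 0.37, edgeR adjusted p = 0.00197). TOMM7 went to -1.99 (SE 0.36, edgeR adjusted p = 0.00212). TIMM8B was at -1.26 (edgeR adjusted p = 0.166), TIMM10 at -1.10 (0.205), TOMM6 at -0.84 (0.377) and TOMM5 at -0.21 (0.699), none past the threshold. The lengths come from a later build than the reads were aligned to, and the expressed isoforms were not tested.

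Whether a member has an annotated NMD isoform was compared next. GENCODE types at least 1 transcript as subject to NMD for 7 of the 20 tested members (TIMM8B, TIMM10B, TIMM17B, TIMM44, TIMM50, TOMM5 and TOMM40). Of these 7, 0 were higher and 2 lower (median log2 fold change 0.12), and of the other 13, 0 were higher and 4 lower (median -0.27). Of the 3548 tested protein-coding genes with such a transcript, 259 (7.3%) were lower and 329 higher. Of the 4129 with none, 359 (8.69%) were lower and 370 higher. Over both sets together 8.05% were lower and 9.11% higher. The table counts reads per gene, so reads of such isoforms cannot be told apart from those of the main transcript.

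Beyond the family, 43 further genes of the import motor, the SAM and MICOS complexes, oxidative folding, the peptidases and the porins were examined. Of these, 32 were tested, 4 fell and 0 rose. That is 12.5% lower, against 10.9% of all tested genes and 8.05% of tested protein-coding genes (8.81% and 9.11% higher). At an unadjusted edgeR p under 0.05, 7 were lower and 2 higher. The share of all genes at that unadjusted level was not computed, so the shares above are no background for it. DESeq2 called 4 lower and 1 higher (11.9% and 10.2% of all genes), and limma-voom 4 and 0 (12.8% and 8.07% of all genes). The median log2 fold change was -0.49. HSPE1, the matrix cochaperonin, had 28.1, 28.6 and 31.1 CPM in pre-IP and 3.97, 5.46 and 4.47 in pUPF1 (-2.64, SE 0.60, edgeR adjusted p = 0.00529). ROMO1, a small inner-membrane protein, was at -3.06 (SE 0.74, edgeR adjusted p = 0.00798), which missed the threshold when pre-IP replicate 4 was left out (-2.19, edgeR adjusted p = 0.0699) and was below the filter without pre-IP replicate 1.

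CHCHD3, a MICOS subunit imported through oxidative folding, was at -1.20 (SE 0.33, edgeR adjusted p = 0.0173), and TIMMDC1, an assembly factor of respiratory complex I related to TIM17, at -1.30 (SE 0.40, edgeR adjusted p = 0.0298). CHCHD3 was called in 3 and TIMMDC1 in 1 of the 6 analyses that each left out 1 library, with highest adjusted p values of 0.0842 (without pUPF1 replicate 6) and 0.148 (without pUPF1 replicate 3). On library totals alone CHCHD3 (0.35) and TIMMDC1 (0.26) were positive and not called. With the length trend removed HSPE1 (-1.73), ROMO1 (-1.53) and CHCHD3 (-0.89) were not called, while TIMMDC1 stayed lower (-1.41, edgeR adjusted p = 0.0317). In that setting 2 genes of the list were lower, TIMMDC1 among them, where 8.15% of all genes were. The most counted genes of the list, the mitochondrial HSP70 HSPA9 (587 ± 111 and 409 ± 110 CPM) and the chaperonin HSPD1 (259 ± 36.8 and 225 ± 7.63 CPM), had log2 fold changes of -0.53 (SE 0.34) and -0.20 (SE 0.28) and did not pass the test.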

How the data were processed

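The deposited table holds whole-number read counts per gene symbol for 6 libraries, without normalization. Per the submitters' processing notes, the authors used featureCounts (Subread 1.5.0p3), cutadapt 1.15 and STAR 2.5.2b on build hg19. For the annotation, strand setting and multiple matches, nothing is stated (not given in the sources used here). Per the labels' protocols, inserts above 20 bp were selected after adapter ligation and 20 PCR cycles. Groups came from sample titles.

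Counts were tested over all genes with edgeR 4.0.16 in R 4.3.3 (filterByExpr, minimum count 10, TMM, quasi-likelihood F-test, Benjamini-Hochberg 0.05). CPM are TMM-scaled, and SE is the log2 fold change divided by the root of F. The code was checked on simulated counts. Alternatives were other scalings and filters, DESeq2 1.42.0, limma-voom (limma 3.58.1), each library left out, a replicate block, small structured RNA genes left out (2337, by symbol), and lowess trends (span 0.3) over transcript length or GC removed. Transcript properties came from GENCODE 29 (GRCh38, matched by symbol, 1 principal transcript per gene, TOMM70A by its newer name). Since that build is later than hg19, coordinates are left out. Every member is named, as are other import genes that passed the threshold and the 2 with the highest mean CPM. Members and lists were chosen with earlier results of these data known.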

Additional observations from a re-analysis of the deposited data

How the results depend on the processing

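Of 339 values of the 20 tested members under the alternatives, 284 kept direction and side of the threshold, 36 changed sign, and the rest lost or gained a call. Sign changes included, 14 lost a call and 10 gained 1, of which, on library totals alone, TOMM5 lost its call with a change of sign and 4 (TOMM20, TIMM23, TOMM34 and TOMM70A) gained theirs with one. The cause of these shifts was not tested, except that scaling by totals moves all genes up and removing a trend acts on the trend. Depth limits the thinly counted members, with 4, 2 and 4 pre-IP counts of TIMM8A.

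With library totals alone 9 members were higher and 1 lower, 18 other import genes higher and 0 lower, 4874 genes higher and 156 lower, and the members' median was 1.34. On that scale the log2 fold change turned positive for TIMM17A (0.69), TOMM20 (1.49), TIMM23 (1.27), TIMM9 (0.66), TOMM34 (1.36), TOMM70A (1.52), TOMM5 (0.16), TIMM17B (1.31), CHCHD3 (0.35) and TIMMDC1 (0.26). With the length trend removed 2 members and 2 other import genes were lower, 351 genes were higher, and TIMM23 (0.33) and TIMM17B (0.65) turned positive. With the GC trend removed the members' median was -0.62, and TOMM40L (-0.088), TIMM13 (-0.53), TIMM44 (-0.25), TIMM50 (-0.032), TOMM40 (-0.74) and TOMM70A (0.093) changed sign. With no filter 2 other import genes and 1101 genes were higher, and TOMM20 (0.12) and TOMM70A (0.15) were positive. The stricter filter left 2 other import genes lower (CHCHD3 and TIMMDC1), while HSPE1 and ROMO1 were below that filter and not tested. DESeq2 called 1 other import gene higher and put TOMM70A at 0.0072, RLE put it at 0.0068 and upper-quartile scaling at 0.012. With limma-voom TOMM40L was at -0.12 and TOMM34 at 0.15. Without the small structured RNAs the members' share was 0.199% in pre-IP and 0.197% in pUPF1.

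Leaving out each library in turn gave 0 members higher and 4 to 6 lower, 0 to 3 other import genes higher and 2 to 4 lower, 273 to 795 genes higher and 518 to 833 lower, a members' median of -0.45 to 0.032, and shares of 0.0571% to 0.0711% in pre-IP and 0.117% to 0.137% in pUPF1. The lowest count of higher genes, 273, and of lower genes, 518, came without pUPF1 replicate 3, against 711 and 880 with all libraries. It was 333 higher without replicate 6 and 312 without replicate 9. Members whose sign changed in these analyses ranged from -1.22 to 0.68 (TIMM9), -0.55 to 0.26 (TIMM17B), -0.16 to 0.18 (TOMM70A), -0.59 to 0.45 (TOMM34), -0.18 to 0.060 (TOMM20), -0.0065 to 0.27 (TOMM40), -0.092 to 3.10 (TIMM22) and -0.45 to 1.42 (TOMM40L). The upper value of TIMM9, TIMM17B, TOMM70A, TIMM22, TOMM40L and the members' median came without pre-IP replicate 1, and none of these values was called. TOMM40L was below the filter in 1 alternative.

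The groups share no replicate number, so a replicate block could only be formed by triplets of the title numbers (1 with 3, 4 with 6, 7 with 9), which the labels do not state. Deviations from the group means correlated at 0.092, 0.172 and 0.102 within these triplets and each library correlated best with its own triplet, a hint from the data and not from the design. With the block 6 members were lower, the same 6, 1 other import gene was higher, and TOMM70A was at 0.019.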
